A study of Mus musculus with 8 samples.

Results

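Levels of 10 interferon-stimulated genes (ISGs), Isg15, Usp18, Bst2, Rsad2, Ifi27l2a, Ifi27, Oasl2, Cmpk2, Rtp4 and Xaf1, were followed through the single-cell RNA sequencing (scRNA-seq) libraries of aged mouse brain. The genes were taken by name, with earlier results of these data known, and are 10 of the 17001 genes listed in all 3 deposited count tables. Every member passed the filter on low counts in both oligodendrocytes and microglia. In oligodendrocytes Oasl2 passed it only through the wild-type white matter libraries, the group where it was highest. In oligodendrocytes 7 of these genes were under 10 CPM (unique molecular identifiers, UMIs, of a gene per 1000000 UMIs of the same cells) in every cluster outside a small one of interferon-responsive oligodendrocytes (IROs). All 10 had their highest level in IROs, although Isg15 stayed under 10 CPM there as well, at 4.83 CPM. That cluster was drawn with such genes, and the share of all genes highest in it was not counted. Ifi27 and Xaf1 were at 74.8 CPM or more in every cluster, and Ifi27l2a was also high in a cluster named Oligo2c. Between groups of libraries, Ifi27l2a, Rtp4, Oasl2 and Ifi27 were higher in wild-type white than gray matter oligodendrocytes, and Oasl2 and Ifi27l2a were lower in white matter of Rag1-/- than of wild-type mice. Between the tissues each of these calls was lost without at least 1 of the libraries, those of Rtp4, Oasl2 and Ifi27 without any 1 of the 4. Between genotypes Ifi27l2a was lost without any 1 of 3 libraries, whereas Oasl2 passed whichever library was left out. For Oasl2, tested only through the wild-type white matter libraries, that is no independent support.

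Interferons bind receptors on the cell surface and, through STAT and IRF transcription factors, switch on a large set of genes that restrict viruses. In the brain microglia, the resident macrophages, are the cells best known for such a response, and a small interferon-responsive subset appears in aging and disease. Oligodendrocytes, which make myelin, can respond as well. The proteins of the list act at different steps. ISG15 is a ubiquitin-like protein that is attached to other proteins, USP18 removes it again and also dampens signalling at the type I interferon receptor. BST2, also called tetherin, holds budding virions at the membrane. RSAD2, or viperin, makes a chain-terminating nucleotide, and CMPK2, a mitochondrial nucleotide kinase, is encoded next to it. OASL2 belongs to the oligoadenylate synthetase family of RNA sensors, and IFI27 and IFI27L2A are small membrane proteins of the ISG12 family. RTP4 is a receptor chaperone that is also an ISG, and XAF1 binds the apoptosis inhibitor XIAP.

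In the GRCm38 genome, with GENCODE vM21 genes, Isg15 lies at chr4:156199424-156200818 on the minus strand and Usp18 at chr6:121245906-121270917 on the plus strand. Bst2 is at chr8:71534255-71537456, Oasl2 at chr5:114896936-114912234, Rtp4 at chr16:23520291-23614222 and Xaf1 at chr11:72301629-72313733. Both neighbouring pairs are on chromosome 12. Rsad2 (chr12:26442746-26456452) and Cmpk2 (chr12:26469204-26479837) are transcribed away from each other with a gap of 12751 bases. Ifi27 (chr12:103434211-103440239) and Ifi27l2a (chr12:103442167-103443680) face each other, 1927 bases apart. An exon of Rtp4 overlaps Gm45338 on the same strand, so that its counts are uncertain to that extent.

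Promoter windows from RefSeq (GRCm38.p6), reaching from 250 bases before to 50 bases after the start, were at hand for 6 members: Isg15, Bst2, Rsad2, Oasl2, Cmpk2 and Xaf1. They were searched on both strands for GAAANNGAAA, the core of the interferon-stimulated response element to which the ISGF3 complex binds. A match was found in 3 of the 6 windows, and 3.44% of all 32851 windows of the same length held at least 1. The stretches of 60 bases around the matches are shown, 5′ to 3′ along the minus strand on which all 3 genes are read, since they hold the letters searched for; Isg15 has the most matches of the 6 windows. Capitals mark the matches, which overlap in Isg15 (3 matches) and Bst2 (2 matches). That of Rsad2 reads on the opposite strand.
Isg15, chr4:156200856-156200915: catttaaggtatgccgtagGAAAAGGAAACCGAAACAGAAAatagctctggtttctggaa
Bst2, chr8:71537565-71537624: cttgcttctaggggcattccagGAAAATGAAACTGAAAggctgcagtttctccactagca
Rsad2, chr12:26456538-26456597: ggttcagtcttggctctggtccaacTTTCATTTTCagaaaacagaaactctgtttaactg
They begin 97, 152 and 145 bases before the start of Isg15, Bst2 and Rsad2. A match of letters is a description and not a measured site. Isg15, the gene with 3 matches, was among the members that oligodendrocytes carried least.

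Libraries were made with 10x chemistry from live-sorted brain cells of male mice aged 24 months, dissociated with actinomycin D in both genotypes. Wild-type C57BL/6 mice gave 2 libraries each of gray matter (prefrontal cortex) and white matter. Mice with a constitutive Rag1 disruption, labelled NOD.129S7(B6)-Rag-1tm1Mom/J but given in the study's methods as B6.129S7-Rag1tm1Mom/J, gave 1 gray and 3 white matter libraries. They lack mature T and B cells in every tissue. The labels have tissue combined for every library, while the study's list of animals gives a single mouse for Rag1-/- white matter libraries 2 and 3 and pools for the rest, which was not settled here. By that list a wild-type gray and white matter library with the same number came from the same pool. Which strain name holds was not settled here, so the genotypes may also differ in strain. Genotype coincides with experiment and with the processing run, and these cannot be told apart.

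The tables of all cells held 29631 cells, 584 to 7631 per library, with medians of 6435 to 10375 UMIs per cell and 4645054 to 57899352 UMIs per library. Of the barcodes, 92 of 29539 occurred in more than 1 library. The authors' table of oligodendrocytes held 15604 cells, 284 to 4106 per library, and its cells carried their lineage markers at 46403 to 54666 CPM in every library. Microglia-like cells, named from the markers of clusters, numbered 1078 among wild-type and 6599 among Rag1-/- cells. The 3′ tags of Rag1 do not check the disruption, since wild-type libraries held 0 to 24 and Rag1-/- libraries 37 to 108 such UMIs. T cell markers made up 26.0 to 267 CPM of wild-type and 2.99 to 11.6 CPM of Rag1-/- libraries.

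Levels are given as CPM. With 3′ tags CPM does not scale with gene length. A level near 0 may still contain RNA released from other cells, which was not tested. Between clusters the levels are described without a test, because clusters were drawn with all genes. All 10 members had their highest level of the authors' 8 oligodendrocyte clusters in IROs, which held 247 cells over all libraries. How many of all genes were highest in this small cluster was not counted, so 10 of 10 is a description only. In IROs Ifi27l2a reached 521 CPM, Ifi27 503 CPM and Xaf1 229 CPM. Bst2 followed with 69.9, Usp18 with 40.9, Oasl2 with 40.1, Rtp4 with 32.0, Rsad2 with 19.7, Cmpk2 with 17.5 and Isg15 with 4.83 CPM. Relative to all other oligodendrocytes this was 98.0 times for Oasl2, 53.9 for Cmpk2, 52.7 for Isg15 and 47.1 for Usp18, but 2.56 times for Ifi27 and 1.73 times for Xaf1. These factors rest in part on single libraries: that of Isg15 was 20.7 without wild-type white matter library 1 and 92.4 without library 2, and that of Oasl2 was 185 without library 2. IROs nevertheless held less than all of these UMIs. Over all libraries they had 61.7% of the Oasl2 UMIs, 47% for Cmpk2, 46.4% for Isg15 and 43.7% for Usp18. For Bst2, Ifi27l2a and Rsad2 it was 30.6%, 30.3% and 25.6%, with Rtp4 within that range, and for Ifi27 and Xaf1 4.05% and 2.76%. Over this mixture of genotypes and tissues, Oasl2 alone had most of its UMIs in IROs, and the shares by genotype are given with the IROs of each library.

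The next cluster after IROs was Oligo2c for 9 members and Oligo1a for Xaf1. The share of all genes with Oligo2c next was not counted. Oligo2c, a subcluster of 971 cells almost absent from gray matter, carried Ifi27l2a at 145 CPM and Ifi27 at 292 CPM. Usp18 was at 5.29 CPM there, Bst2 at 7.78 and Isg15 at 0.233 CPM. In age-related oligodendrocytes (AROs, 2138 cells), Ifi27l2a was at 9.52 CPM and Ifi27 at 237 CPM. Oligo2a (1569 cells) had Ifi27l2a at 31.4 CPM and not a single UMI of Isg15, which allows up to 0.129 CPM. In the remaining Oligo1 and Oligo2 clusters Ifi27l2a lay between 2.70 and 4.89 CPM, Ifi27 between 152 and 189 and Xaf1 between 118 and 160 CPM. Outside IROs, Ifi27l2a thus ran from 2.70 to 145 CPM between clusters, Ifi27 from 152 to 292 CPM and Xaf1 from 74.8 to 160 CPM. The highest level of the other 7 members outside IROs was 7.78 CPM, that of Bst2 in Oligo2c.

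In the authors' microglia clusters, for which the cells of Rag1-/- libraries were used, the interferon-responsive microglia (IRMs, 74 cells) had the highest level of 9 members. The share of all genes highest in this small cluster was not counted. Isg15 was at 870 CPM in IRMs, Bst2 at 1326, Ifi27l2a at 979, Oasl2 at 418, Rsad2 at 411, Xaf1 at 326, Usp18 at 315, Rtp4 at 311 and Cmpk2 at 77.8 CPM. Ifi27 was the exception, at 103 CPM in IRMs against 128 CPM in the Homeostatic1 cluster and 143 CPM in white matter-associated microglia (WAMs). By library, in gray matter and then white matter 1, 2 and 3, IRMs carried Isg15 at 961, 636, 1365 and 906 CPM. The last of these libraries gave 9 IRM cells. Usp18 was at 356, 287, 399 and 246 CPM in the same libraries. Every library thus had both genes far above their level in Homeostatic1 cells. Homeostatic1 microglia had Isg15 at 10.6, Usp18 at 4.00 and Rsad2 at 0.746 CPM, but Bst2 at 146 CPM. Bst2 was at 220 CPM in WAMs, where Ifi27l2a was at 178 and Isg15 at 8.18 CPM.

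IRMs exceeded IROs by very different factors. The IRMs are Rag1-/- cells, whereas 158 of the 247 IROs are wild-type. Over all IROs the ratio was 180 for Isg15, 20.8 for Rsad2, 19.0 for Bst2, 10.4 for Oasl2, 9.74 for Rtp4, 7.70 for Usp18 and 4.45 for Cmpk2. It was 1.88 for Ifi27l2a and 1.42 for Xaf1, and for Ifi27 it was 0.205, so that IROs carried more Ifi27 than IRMs. Against the 89 Rag1-/- IROs alone, the ratio was 76.1 for Oasl2, 35.4 for Rtp4, 31.1 for Rsad2, 22.8 for Bst2, 16.9 for Usp18 and 10.1 for Cmpk2, from 5 to 53 UMIs in IROs, and 3.07 for Ifi27l2a, 1.36 for Xaf1 and 0.277 for Ifi27. Isg15 had 1 UMI in Rag1-/- IROs (1.10 CPM), and without wild-type white matter library 1 its level over all IROs was 1.70 CPM. Without that library the ratio over all IROs was 33.3 for Rsad2, and without wild-type white matter library 2 it was 14.2 for Usp18, 16.1 for Oasl2 and 114 for Isg15. Shares of cells with at least 1 UMI differed likewise: 91.9% of IRMs and 2.02% of IROs had a UMI of Isg15, against 0.0977% of the other oligodendrocytes. For Usp18 the shares were 82.4%, 15.4% and 0.488%, and for Ifi27l2a they were 73.0%, 40.1% and 4.84%. Median UMIs per cell were 5694 to 7080 in IRMs and 8840 to 12271 in IROs of the white matter libraries, and the part of depth in these shares was not tested.

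Across the 13 cell types named here, no member was found in a single lineage alone. With libraries pooled, oligodendrocytes ranked last for Isg15, Usp18, Bst2, Cmpk2 and Rtp4 and 12th for Rsad2 and Oasl2. Ifi27l2a ranked 9th, with 1.04 to 65.2 CPM by library, and Ifi27 4th. Pooled over libraries, oligodendrocytes had 0.168 CPM of Isg15 and microglia-like cells 21.8 CPM, a ratio of 129. Within single libraries this ratio ran from 23.0 and 29.1 in wild-type gray and white matter library 1, and 153 and 117 in wild-type libraries 2, to between 169 and 551 in the Rag1-/- libraries, with 1 to 11 Isg15 UMIs in the oligodendrocytes of each. Most microglia-like cells were Rag1-/-. The pooled ratio was 53.0 for Bst2 (19.1 to 109 by library), 8.37 for Usp18 (6.47 to 108) and 5.29 for Ifi27l2a (4.43 to 41.6). For Xaf1 it was 0.284 (0.224 to 0.362), below 1 in every library. For Ifi27 it was 0.664, below 1 in all libraries but Rag1-/- gray matter (1.09), with 0.888 and 0.970 in wild-type gray matter. Isg15 reached 162 CPM in T cell-like, 148 in endothelial-like, 101 in neutrophil-like and 58.8 in macrophage-like cells, and 1.37 CPM in oligodendrocyte precursor-like cells. Bst2 was highest in macrophage-like cells (547 CPM), Oasl2 and Cmpk2 in neutrophil-like cells (155 and 52.9 CPM) and Rsad2 in erythroid-like cells (140 CPM). Choroid plexus-like cells held Ifi27 at 1655 CPM and Isg15 at 9.69 CPM. Xaf1 was at 134 CPM in oligodendrocytes (115 to 154 by library), 130 in endothelial-like and 10.4 in neuroblast-like cells, and the first 2 levels do not differ beyond the spread of the libraries. At least 10 CPM was reached in all 13 types by Ifi27 and Xaf1, in 11 by Bst2, in 8 by Isg15 and in 6 each by Usp18, Rsad2, Oasl2 and Cmpk2. T cell-like cells came from wild-type libraries, and endothelial-like, erythroid-like and oligodendrocyte precursor-like cells from Rag1-/- libraries, so that these levels rest on 1 genotype each. T cell-like cells varied widely: Isg15 was at 34.7 CPM in wild-type gray matter library 2 and at 433 and 116 CPM in white matter libraries 1 and 2.

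**Figure D1:**
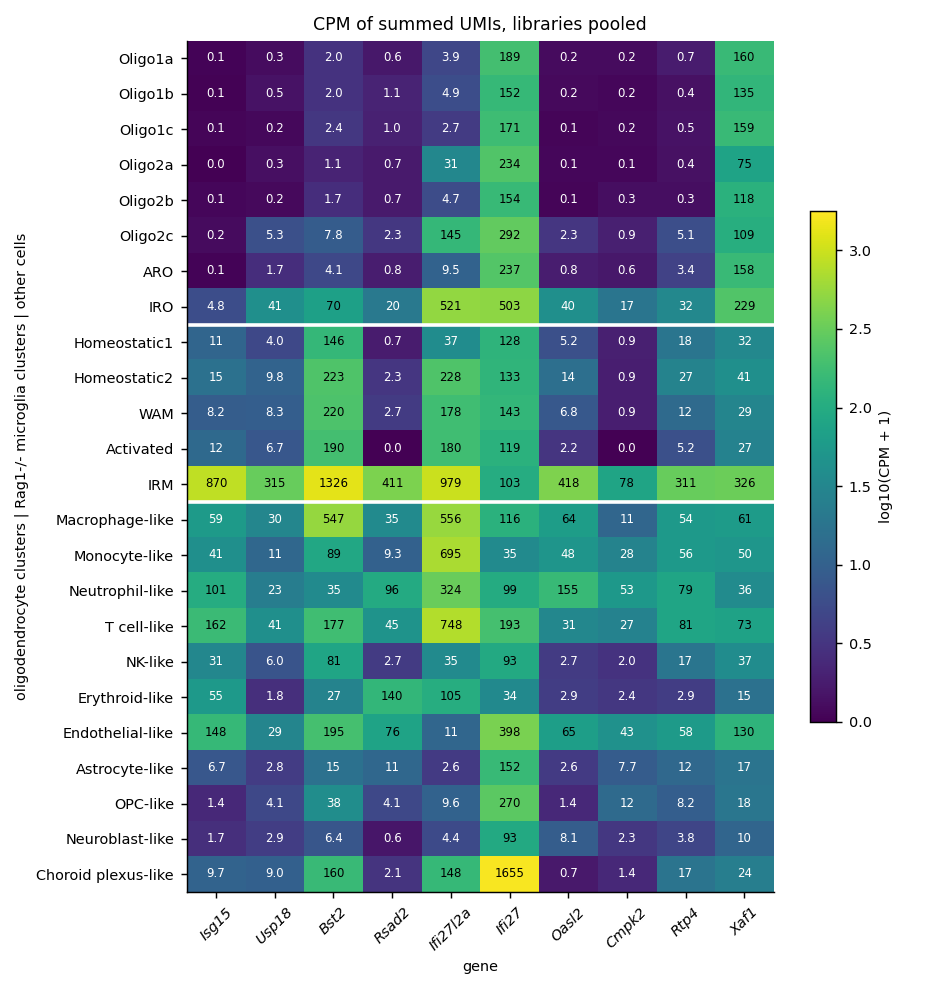
Levels of the 10 genes (columns) in 8 oligodendrocyte clusters, 5 microglia clusters of Rag1-/- libraries and 11 other cell types (rows), libraries pooled. Colour is log10(CPM + 1) and the printed value is CPM. The IRO row is the brightest of the oligodendrocyte block in every column, Ifi27 and Xaf1 are above 10 CPM in every row, and Isg15 is at 4.83 CPM in IROs, of which 9 of 13 UMIs are from wild-type white matter library 1, and at 870 CPM in IRMs, which are Rag1-/- cells.

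ISG15 and its protease USP18 were compared as a balance, the percentage of Isg15 among the UMIs of both genes in the same cells. This quantity is a comparison between cell groups and not between the amounts of the 2 proteins. In oligodendrocytes Isg15 made up 10.0% of these UMIs, 28 of 280, with an exact 95% interval of 6.75 to 14.1. It was 10.6% in IROs (5.75 to 17.4), 4.23% in Oligo2c (0.880 to 11.9), 5% in AROs (0.611 to 16.9) and 22.2% in the merged Oligo1 cluster (6 of 27 UMIs, 8.62 to 42.3). The IRO value depends on single libraries: it was 47.4% in wild-type white matter library 1 (9 of 19 UMIs) and 3.57% in library 2 (3 of 84). In library 1, 7 of the 9 Isg15 UMIs sat in 1 cell. Without library 1 it was 3.85% (4 of 104) and without library 2 25.6% (10 of 39). For all oligodendrocytes the value was 7.02% without library 1 and 15.9% without library 2. In microglia-like cells it was 63.2% (61.0 to 65.4) and in IRMs 73.4% (69.9 to 76.8). The intervals cover counting error only. T cell-like cells stood at 79.9%, endothelial-like cells at 83.7%, neutrophil-like cells at 81.4% and astrocyte-like cells at 70.9%. No other cell group with at least 20 UMIs came as low as the oligodendrocytes, and WAMs (49.7%) were the lowest among the microglia.

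The balance was lower in oligodendrocytes than in microglia-like cells in each of the 8 libraries. Among wild-type libraries it was 67.7% and 51.9% in gray and 53.8% and 49.8% in white matter microglia-like cells, and in Rag1-/- libraries 59.1% to 76.9%. Oligodendrocytes of wild-type white matter libraries 1 and 2 had 28.9% and 5.19%, and those of Rag1-/- white matter libraries 1 and 3 had 3.13% and 5.13%. Those of wild-type gray matter libraries 1 and 2 had 50% and 25%, and those of Rag1-/- gray matter and white matter library 2 had 33.3% each, from 3 to 6 UMIs. In wild-type gray matter library 1 the interval of the microglia-like cells, 48.6 to 83.3%, includes the value of the oligodendrocytes. The oligodendrocyte intervals include the microglia-like value in wild-type gray matter library 2 (0.631 to 80.6%), Rag1-/- gray matter (0.840 to 90.6%) and Rag1-/- white matter library 2 (4.33 to 77.7%). In all of these libraries the order is not beyond counting error. The 28 Isg15 UMIs of oligodendrocytes sat in 20 cells, of which 15 outside IROs had 1 each and 5 IROs had 13, with up to 7 in a cell. Usp18 UMIs, 252 in all, sat in 113 oligodendrocytes, and 38 IROs held 110 of them. Microglial markers were at 164 CPM in the oligodendrocytes with an Isg15 UMI and at 170 CPM in all oligodendrocytes. The part of RNA from other cells in the Isg15 UMIs was not tested.

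**Figure D2:**
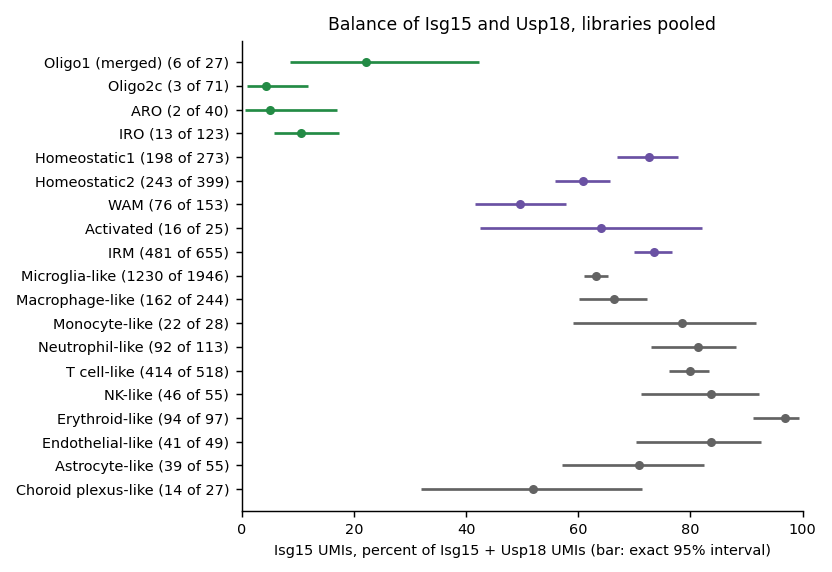
Percentage of Isg15 among the UMIs of Isg15 and Usp18 (x axis) in each cell group with at least 20 such UMIs, libraries pooled. Bars are exact 95% binomial intervals. Oligodendrocyte clusters lie at 4.23 to 22.2%, the highest being the merged Oligo1 cluster with 27 UMIs, and microglia groups at 49.7 to 73.4%.

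The first comparison over libraries asked which members differed between white and gray matter oligodendrocytes of aged wild-type mice. Per library, Ifi27l2a was at 2.92 and 3.74 CPM in gray matter and at 65.2 and 58.4 CPM in white matter. Rtp4 was at 0.731 and 0.159 CPM in gray and at 7.21 and 3.39 CPM in white matter. For Oasl2 the values were 0.366 and 0.239 CPM against 5.36 and 2.82 CPM. Both white matter libraries lay above both gray matter libraries for these genes, although the gray matter levels rest on 1 to 3 UMIs for Rtp4 and Oasl2. Oasl2 was tested only because these white matter libraries passed the filter on low counts. Ifi27 went from 152 and 141 CPM to 278 and 247 CPM. In edgeR's quasi-likelihood test with Benjamini-Hochberg adjustment, these 4 of 10 members were higher in white matter, against 0.742% of all 13069 genes. The log2 fold changes were 4.12 ± 0.46 (SE; adjusted p = 0.00796) for Ifi27l2a, 4.12 ± 0.76 (0.0459) for Rtp4, 3.86 ± 0.72 (0.0485) for Oasl2 and 0.86 ± 0.14 (0.0257) for Ifi27.

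The other 6 members did not pass. Usp18 was at 0.731 and 0.239 CPM in gray and 4.53 and 3.32 CPM in white matter (log2 fold change 3.42 ± 0.93, edgeR's quasi-likelihood test, adjusted p = 0.189). Bst2 was at 2.92 and 1.59 CPM against 14.1 and 4.73 CPM (2.16 ± 0.56, adjusted p = 0.166). These 2 genes and Cmpk2 also had both white matter libraries above both gray matter libraries. Isg15 was at 0.731 and 0.0796 CPM in gray and 1.84 and 0.182 CPM in white matter, from 2, 1, 11 and 8 UMIs, and its groups overlapped (1.73 ± 1.59). Rsad2 overlapped as well, with 0.366 and 2.23 CPM in gray and 5.36 and 1.14 CPM in white matter (0.89 ± 0.85). Erythroid markers were at 1112 CPM in the oligodendrocytes of gray matter library 2, the one with 2.23 CPM, and at 0 to 0.205 CPM in the other wild-type libraries, and their part was not tested. Xaf1, at 115 and 123 against 132 and 118 CPM, had a log2 fold change of 0.08 ± 0.12. In total 7 members were higher in every white than in every gray matter library, as were 20.5% of all genes. The median log2 fold change of the members was 2.02 and that of all genes was −0.01.

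These calls were sensitive to single libraries. Without wild-type gray matter library 2, the adjusted p of Ifi27l2a was 0.176, and with edgeR no gene of 13259 passed while 1333 had an unadjusted p under 0.05. Oasl2, Rtp4 and Ifi27 each missed the threshold when any 1 of the 4 wild-type libraries was left out. With the mouse pool as a block, 6 members passed, against 5.49% of all genes that were called higher in that fit, the additional ones being Usp18 (3.39, adjusted p = 1.43e-05) and Bst2 (1.83, adjusted p = 1.88e-06). Only 1 residual degree of freedom is left in that fit, so that its p-values rest on the spread borrowed across genes. Microglial markers were at 639 and 119 CPM in gray and 393 and 95.5 CPM in white matter oligodendrocytes, with all 8 markers above 0. T cell markers were at 1.83 and 0.159 CPM in gray and at 8.72 and 1.93 CPM in white matter, and neutrophil markers at 109 and 3.90 CPM in gray and at 90.2 and 8.84 CPM in white matter. Choroid plexus markers were at 15.7 and 9.55 CPM in gray and at 44.9 and 37.0 CPM in white matter. Astrocyte markers were at 337 and 269 CPM in gray and at 117 and 116 CPM in white matter. Their part in the differences was not tested. Fewer cells of a type and less RNA per cell cannot be told apart in such sums.

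**Figure D3:**
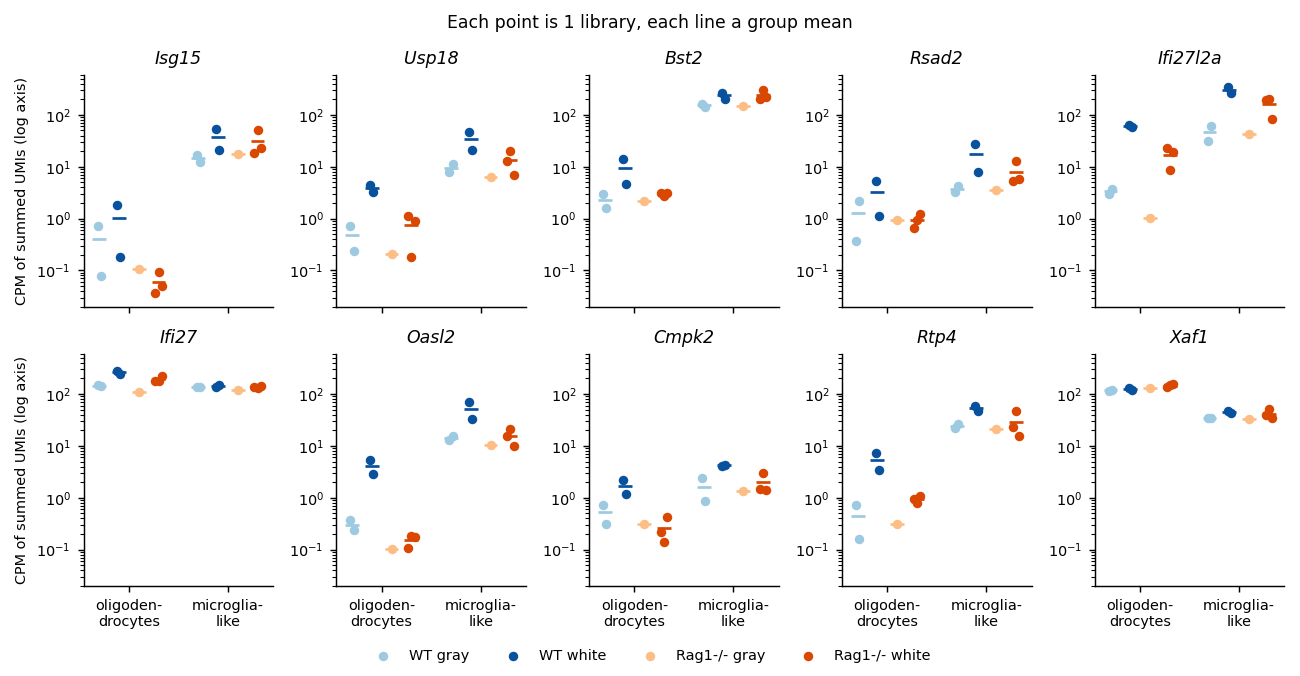
CPM of each of the 10 genes (panels, log axis) in the summed oligodendrocytes and microglia-like cells of each library. Points are libraries, coloured by the 4 groups of tissue and genotype, and lines are group means. Ifi27l2a in wild-type oligodendrocytes goes from 2.92 and 3.74 CPM in gray to 65.2 and 58.4 CPM in white matter.

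The second comparison asked how white matter oligodendrocytes of mice without T and B cells differed from those of wild-type mice. Oasl2 was at 5.36 and 2.82 CPM in wild-type and at 0.109, 0.186 and 0.172 CPM in Rag1-/- white matter, the latter from 3, 4 and 7 UMIs. Ifi27l2a was at 65.2 and 58.4 CPM against 23.1, 8.63 and 19.1 CPM. All 3 Rag1-/- libraries were below both wild-type libraries. These 2 of 10 members were lower by edgeR's quasi-likelihood test with Benjamini-Hochberg adjustment, as were 0.199% of all genes, with log2 fold changes of −4.56 ± 0.53 (adjusted p = 0.00259) for Oasl2 and −1.80 ± 0.31 (adjusted p = 0.0337) for Ifi27l2a. Oasl2 passed whichever of the 5 libraries was left out, between −4.98 and −4.08. It was tested only because the wild-type white matter libraries, where it was highest, passed the filter on low counts. Its call and these repeats are therefore no independent support. Ifi27l2a missed the threshold without wild-type library 1 (adjusted p = 0.107), wild-type library 2 (0.111) or Rag1-/- library 3 (0.112). T cell markers were at 8.72 and 1.93 CPM in these wild-type sums, with 1 of 7 at 0, and at 0.217, 0.232 and 0.0246 CPM in Rag1-/- sums, with 3, 4 and 6 at 0. Neutrophil markers were at 90.2 and 8.84 CPM against 11.4, 2.14 and 3.83 CPM. T cell-like cells had the highest Ifi27l2a of the named cell types and neutrophil-like cells the highest Oasl2, and the part of RNA from such cells was not tested.

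Rtp4 came close, at 7.21 and 3.39 CPM against 0.942, 0.789 and 1.10 CPM (−2.36 ± 0.47, edgeR's quasi-likelihood test, adjusted p = 0.0761). It passed without the filter on low counts (adjusted p = 0.0300) and in DESeq2 (0.00688). Usp18 was at 4.53 and 3.32 CPM in wild-type and at 1.12, 0.186 and 0.908 CPM in Rag1-/- libraries (−2.29 ± 0.61, adjusted p = 0.238). Values for Cmpk2 were −2.48 ± 0.66, for Bst2 −1.50 ± 0.41, for Isg15 −3.65 ± 1.28, for Rsad2 −1.59 ± 0.72 and for Ifi27 −0.39 ± 0.12. Xaf1 alone pointed upwards, with 132 and 118 CPM in wild-type and 135, 148 and 154 CPM in Rag1-/- libraries (0.28 ± 0.11, adjusted p = 0.547). All Rag1-/- libraries were below all wild-type libraries for 8 members, as for 12.7% of all genes. The median log2 fold change was −2.04 over the members and 0.01 over all genes. This comparison and that of the wild-type tissues share the wild-type white matter libraries.

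Within Rag1-/- mice, Ifi27l2a was at 1.04 CPM in the gray matter library and at 23.1, 8.63 and 19.1 CPM in white matter (log2 fold change 4.04 ± 0.70), and Ifi27 at 111 CPM against 179, 178 and 218 CPM (0.81 ± 0.16). With edgeR's quasi-likelihood test, neither passed (adjusted p = 0.0558 and 0.0870), and 0 of 10 members were called, against 0.436% of all genes in either direction. Unadjusted p-values under 0.05 were found for 1260 genes. Both genes passed without the filter and in DESeq2. Erythroid markers were at 538 CPM in these gray matter oligodendrocytes and at 75.5, 35.9 and 42.4 CPM in white matter, and astrocyte markers at 275 against 140, 150 and 167 CPM, and their part was not tested. Non-overlap was seen for 6 members above gray matter, as for 32.8% of all genes, which is a high share because gray matter is 1 library. Isg15, with 1 UMI in gray matter, was lower in every white matter library, as were 28.9% of all genes. Ifi27l2a differed between tissues by 4.12 in wild-type and 4.04 in Rag1-/- mice, a difference of −0.09 ± 1.04. For Rtp4 the difference was −2.51 ± 1.30 and for Oasl2 −3.29 ± 1.75. This test of the difference called 0 of 10 members and 0% of 13069 genes with edgeR, with 236 genes at an unadjusted p under 0.05 and 3 genes called by DESeq2. Intervals of this width leave large differences between genotypes possible.

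**Figure D4:**
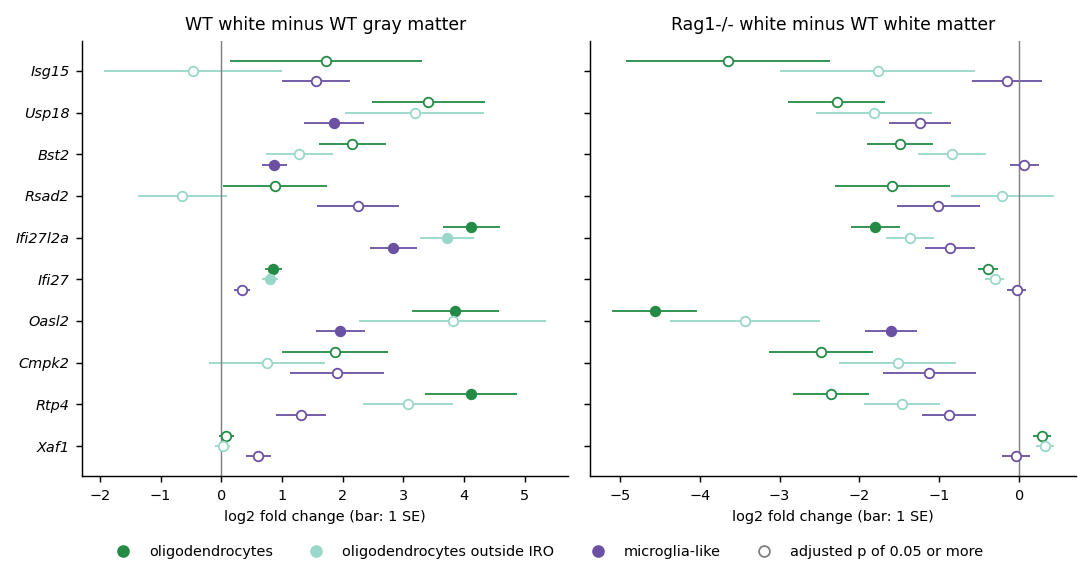
Log2 fold change ± SE of each of the 10 genes in wild-type white against gray matter (left) and in Rag1-/- against wild-type white matter (right), for all oligodendrocytes, oligodendrocytes outside the IRO cluster and microglia-like cells. Filled points have an adjusted p under 0.05. Ifi27l2a is filled for all 3 sets of cells on the left, and Oasl2 for oligodendrocytes and microglia-like cells on the right.

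Oligodendrocytes outside the IRO cluster were then taken alone. That cluster was drawn with the members among other genes, so leaving it out removes cells picked for high levels. It held 3.30% of wild-type and 1.04% of Rag1-/- white matter oligodendrocytes. A call lost outside it is therefore partly built in. Ifi27l2a was at 2.57 and 2.96 CPM in wild-type gray and at 36.4 and 38.8 CPM in white matter, and Ifi27 at 146 and 139 against 254 and 237 CPM. White matter remained above gray matter for both genes. By edgeR's quasi-likelihood test with Benjamini-Hochberg adjustment these 2 of 10 members were higher, against 0.698% of all genes, at 3.72 ± 0.45 (adjusted p = 0.00931) and 0.80 ± 0.14 (adjusted p = 0.0323). Rtp4 (3.08 ± 0.74, adjusted p = 0.132) and Oasl2 (3.82 ± 1.54, adjusted p = 0.465) no longer passed. Oasl2 was left with 1 and 0 UMIs in gray and 6 and 50 UMIs in white matter. The pool block called 5 members and 5.3% of all genes higher, adding Usp18 (3.13), Bst2 (1.13) and Rtp4 (3.12). Ifi27l2a was lost without either gray matter library (adjusted p = 0.0508 and 0.215), and Ifi27 without any of the 4. With Oligo2c cells removed as well, a step chosen after seeing the data, Ifi27l2a still passed edgeR's quasi-likelihood test, at 2.28 (adjusted p = 0.00888). Ifi27, at 0.69, no longer did (adjusted p = 0.0741).

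Between genotypes, 0 of 10 members passed in edgeR outside IROs, against 0.851% of all genes, and 1032 genes had an unadjusted p under 0.05. Leaving out IROs took a larger share of cells from wild-type, so no conclusion on the members is drawn from this 0. Ifi27l2a was at 36.4 and 38.8 CPM in wild-type and at 18.2, 7.31 and 16.3 CPM in Rag1-/- white matter (−1.37 ± 0.30, edgeR's quasi-likelihood test, adjusted p = 0.126). Oasl2 was at 1.07 and 1.17 CPM against 0.110, 0 and 0.149 CPM (−3.43 ± 0.94, adjusted p = 0.273). DESeq2 called 1 member lower (0.353% of all genes), and so did the fit without a filter (0.181%). Within Rag1-/- mice 0 of 10 members passed with edgeR, against 0.437% of all genes and 1252 genes at an unadjusted p under 0.05, and Ifi27l2a had 3.75 ± 0.65 (adjusted p = 0.0527). DESeq2 called 2 (1.07% of all genes higher).

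IROs themselves numbered 1 and 5 cells in wild-type gray matter, 29 and 123 in wild-type white matter, 0 in Rag1-/- gray matter and 39, 17 and 33 in Rag1-/- white matter. The levels inside them are a description, since the cells were grouped on such genes. Oasl2 was at 76.7 and 53.5 CPM in wild-type IROs, and at 0 (up to 8.19 allowed by a count of 0), 20.2 and 2.89 CPM in Rag1-/- IROs, the latter from 0, 4 and 1 UMIs. Rtp4 was at 79.6 and 36.9 CPM against 13.6, 0 (up to 15.1) and 8.68 CPM, from 5, 0 and 3 UMIs. These are white matter libraries. In their IROs 6 members, Oasl2, Rtp4, Ifi27l2a, Ifi27, Usp18 and Cmpk2, were lower in every Rag1-/- than in every wild-type library, as were 14.8% of the 9820 genes with at least 10 UMIs in these sums. The 6 IROs of wild-type gray matter had no UMI of Rtp4 and 3 of Oasl2. Ifi27l2a, at 543 and 662 CPM against 382, 151 and 347 CPM, and Ifi27, at 672 and 538 against 404, 268 and 399 CPM, are 2 of these. Usp18 was at 29.5 and 58.6 CPM against 21.8, 0 (up to 15.1) and 26.0 CPM, and the lower wild-type value was close to the highest Rag1-/- value. Xaf1 was at 227 and 224 CPM against 254, 288 and 197 CPM, and its groups overlapped. So did those of Bst2, at 136 and 62.2 against 73.7, 70.7 and 34.7 CPM, and of Rsad2, at 70.8 and 12.3 against 5.46, 0 (up to 15.1) and 28.9 CPM.

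Isg15 in IROs came from 1 library in the main. Wild-type white matter library 1 had 9 of the 13 UMIs, 26.5 CPM (exact interval 12.1 to 50.4), and library 2, with 123 cells, had 3 UMIs or 2.17 CPM (0.447 to 6.34). Of the 9 UMIs of library 1, 7 sat in 1 cell, whereas the intervals count UMIs as independent. Rag1-/- libraries 1, 2 and 3 had 0, 1 and 0 UMIs. The same wild-type library had the higher Rsad2 and Bst2 of both, whereas Usp18 was lower there. Its IROs also carried more microglial markers (357 against 92.5 CPM), neutrophil markers (88.5 against 9.40 CPM) and T cell markers (8.85 against 2.89 CPM), and their part was not tested. At least 3 of the 8 members other than Ifi27 and Xaf1 were found in 20.7% and 18.7% of wild-type IROs and in 10.3%, 5.88% and 9.09% of Rag1-/- IROs. Most cells of the cluster thus had fewer than 3 of these genes at this depth.

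IROs were 5.87% and 2.996% of the oligodendrocytes in wild-type white matter libraries 1 and 2, and 1.28%, 1.04% and 0.855% in the Rag1-/- ones. Pooled this was 3.30% and 1.04%, and library 2 gave most of the wild-type cells. Their share of the UMIs of each member, wild-type then Rag1-/-, was 64.1% and 35.7% for Oasl2, 52.6% and 23.6% for Usp18, 45.2% and 19.3% for Bst2 and 40.6% and 9.09% for Rtp4. For Cmpk2 it was 60% and 26.9% and for Rsad2 50% and 13.8%. It was 37.2% and 18.1% for Ifi27l2a, 7.77% and 1.92% for Ifi27 and 6.48% and 1.65% for Xaf1. Isg15 had 63.2% and 20%, the second being 1 of 5 UMIs. Some shares rest on 1 library. In wild-type white matter that of Isg15 was 37.5% in library 2 alone, and in library 1 alone those of Rsad2, Rtp4, Ifi27 and Xaf1 were 75%, 62.8%, 13.8% and 9.76%. In Rag1-/- white matter that of Oasl2 is 5 of 14 UMIs and was 1 of 10 without library 2. Without library 3 that of Cmpk2 was 0 of 9 UMIs and that of Rsad2 5.26%, and without library 1 that of Rtp4 was 4.84%. Oligo2c, with 8.35% and 6.83% of the cells, held 42.5% and 37.5% of the Ifi27l2a UMIs, more than IROs with the libraries of each genotype pooled. The order turned in wild-type library 1, with 135 UMIs in Oligo2c and 184 in IROs, and in Rag1-/- library 2, with 23 and 30. In Rag1-/- white matter Oligo2c also held more UMIs than IROs of Usp18 (44.4%) and Rtp4 (30.7%), in each of the 3 libraries. In Oligo2c itself Ifi27l2a was at 248 and 240 CPM in wild-type and at 106, 13.9 and 91.6 CPM in Rag1-/- libraries, and Ifi27 was at 466 and 352 against 253, 200 and 255 CPM. These 2 and Usp18 were the 3 of 9 members with at least 10 UMIs in this cluster that were lower in every Rag1-/- library, as were 15.3% of 11923 genes, while Xaf1 (110 and 98.3 against 107, 119 and 118 CPM) overlapped.

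Cells with several members at once were counted without use of the clusters. The 8 members other than Ifi27 and Xaf1 were used, a choice made after their levels were seen, and every oligodendrocyte was thinned to 2000 UMIs, which left out 2 to 27 cells per library. At least 2 members were found in 1.02% and 0.834% of cells in wild-type white matter libraries (5 and 34 cells). Wild-type gray matter had 0% and 0.0899%, where 0 of 277 cells allows up to 1.08%. Rag1-/- libraries had 0% in gray matter, where 0 of 1053 allows up to 0.285%, and 0.164%, 0.184% and 0.156% in white matter. The wild-type white matter mean was 0.928% ± 0.134 (SD, n = 2) and that of Rag1-/- white matter was 0.168% ± 0.0147 (SD, n = 3). No Rag1-/- library reached a wild-type white matter library. An exact two-sided permutation test gave p = 0.2 for the genotypes and p = 0.333 for the tissues, the smallest values these numbers of libraries allow. Before thinning the shares were 5.26% and 2.46% in wild-type and 0.917%, 0.613% and 0.648% in Rag1-/- white matter.

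**Figure D5:**
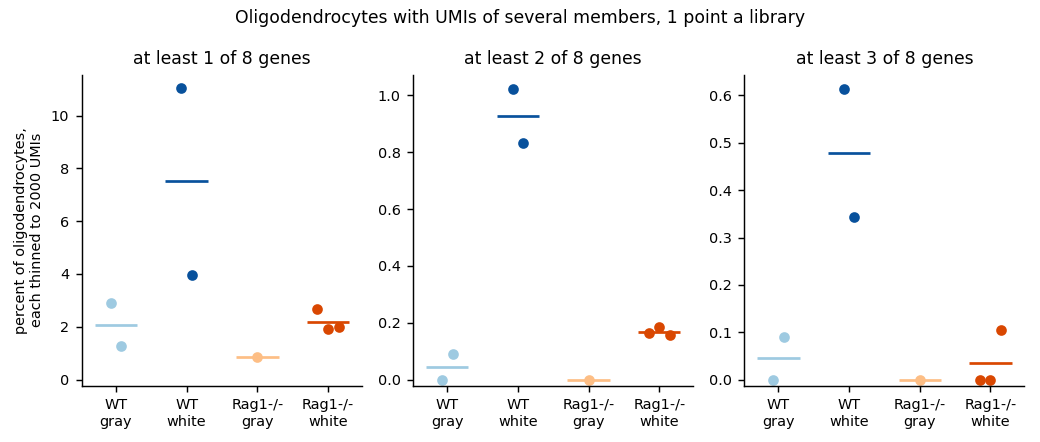
Percentage of oligodendrocytes, thinned to 2000 UMIs, with at least 1, 2 or 3 of the 8 genes (panels) in each library. Points are libraries and lines are group means. With at least 2 genes the wild-type white matter libraries lie at 1.02 and 0.834% and the Rag1-/- white matter libraries between 0.156 and 0.184%.

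Microglia-like cells also differed between wild-type white and gray matter. Ifi27l2a was at 31.3 and 62.2 CPM in wild-type gray and 340 and 269 CPM in white matter, Oasl2 at 12.8 and 15.5 against 68.9 and 32.8 CPM, and Usp18 at 8.01 and 11.3 against 45.9 and 21.5 CPM. Bst2 was at 165 and 144 against 269 and 207 CPM. White matter exceeded gray matter in all libraries for all 10 members, as for 24.2% of all genes. By edgeR's quasi-likelihood test with Benjamini-Hochberg adjustment 4 of 10 members were higher, against 5.56% of 12094 genes: Ifi27l2a by 2.84 ± 0.39 (adjusted p = 0.000951), Oasl2 by 1.96 ± 0.40 (0.0111), Bst2 by 0.88 ± 0.20 (0.0210) and Usp18 by 1.86 ± 0.49 (0.0404). Isg15, at 16.8 and 12.2 against 53.6 and 21.3 CPM, had 1.56 ± 0.56 (adjusted p = 0.136). Rsad2 had 2.26 ± 0.68 (0.0719), Rtp4 1.32 ± 0.41 (0.0835), Cmpk2 1.91 ± 0.77, Xaf1 0.61 ± 0.21 and Ifi27 0.34 ± 0.13. The median was 1.71 over the members and −0.02 over all genes. With the mouse pool as a block, 9 members passed, the exception being Cmpk2, against 9.91% of all genes called higher.

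Ifi27l2a passed whichever wild-type library was left out, whereas Oasl2, Usp18 and Bst2 passed only when white matter library 2 was the one removed. White matter library 1 was above white matter library 2 for 8 of the members. T cell markers were at 47.3 and 7.22 CPM in microglia-like cells of white matter and at 2.40 and 1.33 CPM in those of gray matter, and their part was not tested. Microglial markers stood at 26076 to 31890 CPM in all libraries. In wild-type mice they were at 31788 and 31557 CPM in gray and at 26076 and 26420 CPM in white matter. Astrocyte markers were at 758 and 832 CPM in the gray and at 191 and 288 CPM in the white matter microglia-like cells of these mice, and their part was not tested.

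Between genotypes, Oasl2 was at 68.9 and 32.8 CPM in wild-type and at 15.2, 21.5 and 9.99 CPM in Rag1-/- white matter microglia-like cells. It was the 1 member of 10 that was lower by edgeR's quasi-likelihood test, at −1.61 ± 0.33 (adjusted p = 0.0289), against 0.447% of all genes. Without wild-type library 1 it was at −1.04 (adjusted p = 0.254) and without Rag1-/- library 3 the adjusted p was 0.0545. T cell markers were at 47.3 and 7.22 CPM in these wild-type sums and at 0.328, 0.236 and 0.416 CPM in the Rag1-/- ones, and neutrophil markers at 348 and 238.4 against 174, 182 and 178 CPM. Neutrophil-like cells had the highest Oasl2 of the named types, and the part of such RNA was not tested. Usp18, at 45.9 and 21.5 against 12.8, 20.04 and 6.94 CPM, had −1.24 ± 0.39 (adjusted p = 0.211), and Ifi27l2a, at 340 and 269 against 193, 205 and 84.6 CPM, had −0.87 ± 0.31. All Rag1-/- libraries were lower for Usp18, Ifi27l2a, Oasl2 and Cmpk2, and 13.9% of all genes had that pattern. Isg15 was at 53.6 and 21.3 CPM in wild-type and at 18.5, 51.2 and 23.0 CPM in Rag1-/- libraries. Its groups overlapped, and the log2 fold change was −0.16 ± 0.44. For Bst2 it was 0.07 ± 0.18 and for Xaf1 −0.04 ± 0.18.

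In Rag1-/- microglia-like cells Ifi27l2a was at 43.4 CPM in gray and at 193, 205 and 84.6 CPM in white matter, and it was the 1 member of 10 that was higher by edgeR's quasi-likelihood test (2.06 ± 0.45, adjusted p = 0.0301), against 2.53% of all genes. It missed the threshold without white matter library 2 (adjusted p = 0.0761) and in DESeq2 (0.0555). Bst2 went from 151 CPM to 198, 304 and 221 CPM (0.85 ± 0.23, adjusted p = 0.0821). White matter was above gray matter in each library for 9 members, against 30% of all genes. Erythroid markers were at 658 CPM in gray and at 75.4, 56.1 and 18.5 CPM in white matter microglia-like cells of these mice, and their part was not tested.

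Whether oligodendrocytes and microglia-like cells changed by different amounts was tested in 1 fit over both. For the genotypes 0 of 10 members passed with edgeR, against 0.00724% of 13810 genes, and 983 genes had an unadjusted p under 0.05. Oasl2 differed by −2.89 ± 0.36 (edgeR's quasi-likelihood test, adjusted p = 0.0735), falling further in oligodendrocytes, and passed without the filter on low counts (adjusted p = 0.0121). Bst2 had −1.33 ± 0.32 and Isg15 −2.86 ± 0.79 (adjusted p = 0.473 and 0.532). For wild-type tissues 0 of 10 passed in edgeR, against 1.08% of all genes, with 1612 genes at an unadjusted p under 0.05, and Ifi27l2a differed by 1.44 ± 0.76 and Rtp4 by 2.76 ± 1.01.

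Other genes of the same pathways were taken from fixed lists. In oligodendrocytes none of the tested genes of 4 lists passed edgeR's quasi-likelihood test in any of the 3 comparisons of groups, in which 0.742% of all genes were called higher, 0.199% lower and 0.436% in either direction. These were the 4 genes of ISG15 conjugation (Uba7, Ube2l6, Herc6 and Trim25), 2 of 8 OAS and RNase L genes, 28 of 34 other ISGs, and none of the 2 ISG12 paralogs, which were too low to test. The median log2 fold change of the 28 ISGs was 0.62 between wild-type tissues and −0.88 between genotypes, and that of ISG15 conjugation was −0.11 and −0.21. In microglia-like cells of wild-type mice, white matter was higher for Ube2l6 (1.22), the E2 enzyme of ISG15, and for Oas1a (1.86), 1 of 6 OAS genes tested. In that comparison 5.56% of all genes were called higher. White matter was also higher for 10 of 31 other ISGs, among them Ifi213 (2.73), Samd9l (2.68), Ifi204 (2.65), Zbp1 (2.47), Ifitm3 (2.33) and Lgals3bp (1.93). Between genotypes Lgals3bp, 1 of 31, was lower (−1.37), against 0.447% of all genes. Within Rag1-/- mice 4 of 31 ISGs were higher in white matter, against 2.53% of all genes: Ms4a4c (2.24), Ifi204 (2.01), Ifitm3 (1.72) and Lgals3bp (1.33).

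The genes whose levels ran most like a member were taken from 9250 genes over 94 sums of a library and a cell group, by Pearson's r of log2(CPM + 10). These sums share libraries and cell types, so the values are descriptions. Isg15 was closest to Tap1 (0.881), Slfn5 (0.880) and Srgn (0.876). Bst2 was closest to Ctsc (0.894), Psmb8 (0.885) and Ifi35 (0.880), and Ifi27l2a to Irf7 (0.767), Irf9 (0.766) and B2m (0.762). Ifi27 was closest to genes outside the interferon response, Dynlt3 (0.783), Naa38 (0.743) and Ndufs8 (0.742). Among members, Usp18 and Rtp4 had 0.879, Isg15 and Rtp4 0.847, and Isg15 and Usp18 0.720. The neighbours Rsad2 and Cmpk2 had 0.653, whereas the neighbours Ifi27 and Ifi27l2a had 0.215. Isg15 had a negative r with Xaf1 (−0.295) and Ifi27 (−0.190). Those are the 2 members at 74.8 CPM or more in every oligodendrocyte cluster. These r run across lineages. Within oligodendrocytes Isg15, Xaf1 and Ifi27 were all highest in IROs, at 52.7, 1.73 and 2.56 times the level of the other cells.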

How the data were processed

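Cells were sequenced on the 10x platform by the authors, who aligned reads to mm10 and counted UMIs per gene and cell with Cell Ranger. The submitters' processing notes name version 4, whereas the study's methods give the wild-type and each of the Rag1-/- runs a version of its own, so that version and genotype cannot be told apart. The deposited tables hold these whole-number UMI counts, not normalized, after the authors' filters on genes and cells, whose UMI limits differed between experiments. Oligodendrocyte and microglia clusters are the authors'. Of the microglia table, 8171 cells from 4 libraries of another series were not used. Other cells were clustered here in scanpy 1.11.5 (2000 variable genes, 30 components, 15 neighbours, resolution 1), named X-like by canonical markers, and 2729 cells stayed unnamed or mixed. The cells of each genotype were clustered on their own. No doublet caller was run. Of the Rag1-/- microglia-like cells, 98.7% are in the authors' microglia table, and 87.7% of the authors' Rag1-/- microglia were microglia-like here. The unnamed cells include 1 cluster of each genotype best matched by microglial markers, of 473 wild-type and 830 Rag1-/- cells. Their median UMIs were low, at 1722 and 2424, and they are not in the microglia-like sums. Those sums hold 1078 wild-type and 6599 Rag1-/- cells, so the part left out is larger in wild-type. Comparisons of microglia-like cells between genotypes thus rest on unequally drawn sets of cells, and the effect was not tested.

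Libraries, not cells, are the replicates. UMI counts were summed per library (oligodendrocytes 2735825 to 43987914 UMIs) and compared with edgeR 4.0.16 (R 4.3.3) in a model of 4 groups over 8 libraries, with filterByExpr, TMM, the two-sided quasi-likelihood F test and Benjamini-Hochberg adjustment over all genes tested. Genes at an adjusted p under 0.05 were called, and the SE is the log2 fold change over the square root of F. Spread was estimated over all 8 libraries, so the single Rag1-/- gray matter library borrows it from the rest. Gray and white matter libraries that shared a wild-type mouse pool, a pairing given by the study, had deviations from their group means that were correlated across genes (r = 0.428 in oligodendrocytes, 0.182 in microglia-like cells). With 2 libraries per group both pools give the same r by construction. Alternatives were RLE size factors, no filter, DESeq2 1.42.0, leaving out each library, the pool block and the authors' microglia table for the Rag1-/- libraries. Scripts were tested on simulated data. Exact 95% intervals, and the bound of 3 counts used where none was found, cover counting error only. The members and lists were chosen with earlier results of these data known. Named genes are the 10 members, list genes that passed, and the 3 genes most like Isg15, Bst2, Ifi27l2a and Ifi27. Those most like Usp18 are not reported here.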

Additional observations from a re-analysis of the deposited data

How the results depend on the processing

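With 1 to 3 libraries per group, 1 library decides most counts, and Isg15, Rsad2 and Cmpk2 had few UMIs in oligodendrocytes. Numbers of members called are given as in the report and then under the alternative, with the share of all genes called in the members' direction in brackets. Counts with a library left out have no such share. The share of all genes called changed in those fits as well, so these counts do not describe the members alone. Wild-type tissues in oligodendrocytes gave 4, in DESeq2 6 (1.35%), and 0 to 2 when 1 library was left out. The genotypes gave 2, without the filter on low counts 3 (0.253%), in DESeq2 3 (0.475%), and 1 to 2 with a library left out. Rag1-/- tissues gave 0, without a filter 2 (0.542%), in DESeq2 2 (1.04%) and 0 to 2 with a library left out. Outside IROs the wild-type tissues gave 2, with Oligo2c cells also left out 1 (0.554%), and 0 to 1 with a library left out. The genotypes gave 0 there, without a filter 1 (0.181%), in DESeq2 1 (0.353%), and 0 to 1 with a library left out. Rag1-/- tissues gave 0, without a filter 2 (0.56%), in DESeq2 2 (1.07%), with Oligo2c cells also left out 1 (0.277%), and 0 to 2 with a library left out. In microglia-like cells the wild-type tissues gave 4, without a filter 7 (5.3%), in DESeq2 6 (5.46%), 3 when the authors' microglia table was used for the Rag1-/- libraries (5.46%), and 1 to 6 with a library left out. The wild-type cells stayed the same under the authors' table, which therefore does not check how they were named. The genotypes gave 1, without a filter 4 (1.41%), and 0 to 2 with a library left out. Rag1-/- tissues gave 1, without a filter 3 (3.82%), and 0 to 2 with a library left out. The difference between cell types by genotype gave 0, and 1 without a filter (0.0296%). The causes were not tested.

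With the mouse pool as a replicate block, wild-type tissues gave 5 outside IROs and 9 in microglia-like cells, with the shares of all genes given in the report. Rag1-/- white matter libraries 2 and 3 have no gray matter partner and drop out of that block, so its Rag1-/- values compare 1 gray with 1 white matter library, with the spread of the wild-type pools, and are no replicate check. They were 2 members in all oligodendrocytes (2.85%), 2 outside IROs (2.85%) and 4 in microglia-like cells (7.25%). The batch numbers shared across genotypes belong to different mice. The r of deviations was −0.06 to 0.144 in oligodendrocytes. In microglia-like cells it was 0.0175 to 0.186, where the wild-type pools had 0.182, so that r does not tell the 2 kinds of pair apart there. The block of batch numbers left the genotype counts at 2, 0 and 1, with 0.26%, 0.222% and 0.835% of all genes called lower. Under the pool block, with the same single Rag1-/- pair, the log2 fold change of Rsad2 between Rag1-/- tissues turned to −0.54, the difference of tissue changes between genotypes turned to −0.046 for Xaf1 and 0.38 for Ifi27l2a, and outside IROs the Rag1-/- tissue change turned to 0.058 for Oasl2, −0.058 for Bst2 and −0.013 for Xaf1.

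Among the values of single members under alternatives, 57 passed newly, 37 no longer passed and 46 changed sign, of which none had passed. A further 873 counted as unchanged. They kept direction and side of the threshold or, for levels in wild-type white matter IROs averaged over cells, lay within the SD of the libraries. Of these levels, 2 moved. Rsad2 between Rag1-/- tissues in oligodendrocytes was −0.0069 without a filter and −0.00069 in DESeq2. With Oligo2c also left out, Rsad2 between genotypes was 0.23 and Bst2 between Rag1-/- tissues −0.056. With the authors' microglia table for the Rag1-/- libraries, Ifi27 between genotypes was 0.035, and Rsad2 and Cmpk2 between Rag1-/- tissues were −0.10 and −0.17. With a library left out, ranges that cross 0 were as follows. In oligodendrocytes between wild-type tissues, Isg15 was −0.33 to 3.18 and Rsad2 −0.49 to 3.02. Between Rag1-/- tissues, Rsad2 was −0.27 to 0.23 and Cmpk2 −0.79 to 0.062. For the difference between genotypes, Xaf1 was −0.030 to 0.14, Rsad2 −3.01 to 0.51, Ifi27 −0.19 to 0.024 and Ifi27l2a −0.42 to 0.21. Outside IROs between wild-type tissues, Xaf1 was −0.046 to 0.11, Rsad2 −1.19 to 1.49 and Cmpk2 −0.18 to 1.33. Between genotypes, Rsad2 was −0.70 to 0.15. Between Rag1-/- tissues, Oasl2 was −0.76 to 0.32, Bst2 −0.054 to 0.24 and Rsad2 −0.33 to 0.049. In microglia-like cells between genotypes, Isg15 was −0.87 to 0.54, Bst2 −0.17 to 0.28, Xaf1 −0.18 to 0.070, Rsad2 −1.88 to 0.031 and Ifi27 −0.082 to 0.017. For the difference between cell types by tissue, Isg15 was −1.70 to 0.93, Rsad2 −1.92 to 0.25 and Cmpk2 −0.54 to 0.36.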
